A study of Mus musculus with 6 samples.

Results

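The 3 wild-type retinae described here are the control arrays among the 6 samples of a study of Meg2, the protein tyrosine phosphatase encoded by Ptpn9, in newborn mouse retina. They were chosen by their sample titles alone, and the other 3 samples, which lack Meg2, were not used. All 3 animals carried the wild-type Meg2 genotype on a C57BL/6NTac background and were taken at postnatal day 0, and the labels name no treatment or transgene. Both retinae of each pup were frozen and pooled, so each array holds the RNA of 1 animal as labelled and a mixture of all retinal cell types. The labels used here give neither sex nor litter. Signals are log2 values per transcript cluster, the set of probes that reads 1 locus, on an Affymetrix whole-transcript array primed with random hexamers from 300 ng of total RNA. Where 3 values are given for a gene, they are wild-type replicates 1, 2 and 3 in that order. There was 1 group of 3 arrays, so levels, ranks and spreads are described and no test was made.

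The mouse retina is made over a long period that spans birth. A shared pool of multipotent progenitors makes ganglion cells, horizontal cells, cones and many amacrine cells before birth, and makes most rods, bipolar cells and Müller glia around and after it. At birth the eyes are closed, photoreceptors have no outer segments, and the tissue still divides. A newborn profile therefore mixes the genes of dividing cells, of young neurons extending axons, and of cells that have chosen a fate without yet building the machinery of the adult cell.

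Genes of the X and Y chromosomes were checked before the other results. Xist, the RNA that coats the inactive X chromosome in females, read 12.73, 12.54 and 6.52. Of 4 measured Y-linked genes on a list of sex-linked genes, 3 gave the opposite order. Uty read 4.71, 7.67 and 9.34, Eif2s3y 5.49, 7.76 and 9.39 and Kdm5d 6.34, 7.87 and 9.39. The other, Usp9y, was below the reference described next on every array, at 4.78, 4.69 and 4.72. Of all 9 measured genes placed on chromosome Y, 1 was above that reference on every array, replicate 1 included. Among the listed genes, replicate 1 thus carried Xist signal alone and replicate 3 Y-linked signal alone. Replicate 2 carried Xist close to the level of replicate 1 together with signals of Uty, Eif2s3y and Kdm5d between those of the other arrays. Its label gives the retinae of 1 animal, and how both signals came to be in 1 array was not tested. The counts of genes above the reference and of genes with a range over 1 are also given without replicate 2. So is the count of rod genes above the reference. Most other counts are given with replicate 2 only.

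The table named a single gene for 21789 clusters, which gave 19938 genes, each represented by its cluster with the highest mean. Gene means ran from 3.35 to 14.51 with a median of 8.52. Each pair of arrays gave a Pearson's r of 0.998 over genes, which were normalised together and are not replicates. To tell signal from the dim end of the scale, the clusters of 1209 olfactory, vomeronasal and trace amine receptor genes, which are used in the nose, served as a reference. On each array the level below which 95% of their clusters fell was taken, and it was 7.20, 7.12 and 7.04. A gene was counted as above the reference where it exceeded that level on each of the 3 arrays. By this rule 13911 genes, or 69.8%, were above it, 5372 (26.9%) were above it on no array, and the rest passed on some. Without replicate 2 the count was 14034, but a rule over fewer arrays is easier to pass.

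**Figure D1:**
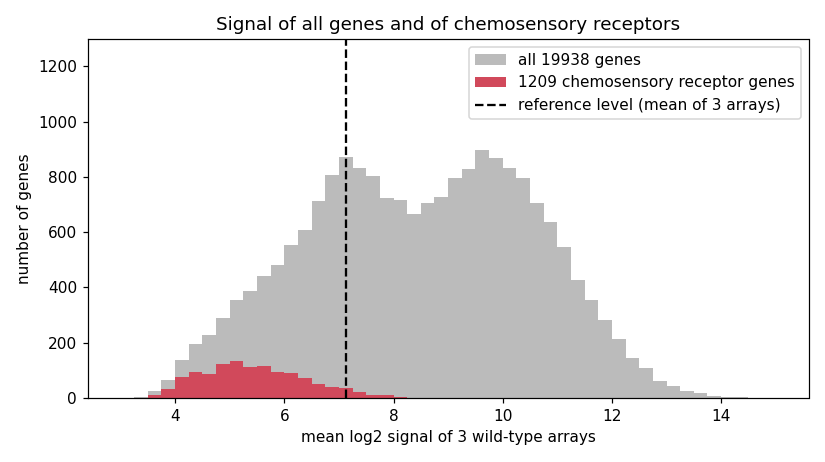
Number of genes (vertical axis) by mean log2 signal of the 3 wild-type arrays (horizontal axis), for all 19938 genes in grey and for 1209 chemosensory receptor genes in red. The dashed line is the mean reference level of 7.12; the receptor genes have a median of 5.37, against 8.52 for all genes.

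The reference is lax. Of 26 measured genes that belong to other tissues, such as liver, pancreas, muscle, skin and testis, 8 were above it. They were led by the skeletal muscle actin Acta1 (mean 8.56), the skin keratin Krt10 (7.94, 8.37 and 7.69) and the muscle creatine kinase Ckm (7.88, 7.74 and 7.79). Albumin (Alb) read 5.41, 5.56 and 5.46, and the lung secretoglobin Scgb1a1 4.14, 4.23 and 4.10, the lowest of that list. A second reference from these genes, again at the level that 95% of them fell below, left 10863 genes, or 54.5%, above. Counts by this stricter reference are given where they differ by over 1.5 times. A rank here is a rank of signal, not of copy number, because probes respond differently: where several clusters read 1 gene, they lay a median of 0.80 apart, and 41.9% of 999 such genes had clusters more than 1 apart. No ratio between genes is given for that reason. In whole retinae, fewer cells of a type and less RNA per cell cannot be told apart.

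The brightest genes were those of translation, the cytoskeleton and cell growth, together with small noncoding RNAs. The highest signal belonged to Rn7sk, the small nuclear RNA that restrains the elongation kinase P-TEFb, at 14.47, 14.54 and 14.52. Eef1a1, which carries aminoacyl-tRNA to the ribosome, read 14.27, 14.32 and 14.33, and Actb, cytoplasmic actin, 14.25, 14.24 and 14.25. A histone H4 gene, H4c4, stood next at a mean of 14.19, and the brain-type creatine kinase Ckb at 14.00. Replication-dependent histone messages lack a poly(A) tail, and the random-hexamer priming described in the labels does not need one. Of 37 measured core and linker histone genes 30 (81.1%) were above the reference, beside 69.8% of all genes. The histone genes had a median signal of 9.55.

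Among the 25 highest genes were several that mark immature or dividing neural tissue. Ccnd1, cyclin D1, which drives retinal progenitors through the cell cycle, ranked 7 of 19938 with 13.97, 13.97 and 13.96. The tubulins Tubb5 (mean 13.95) and Tuba1a (13.95) and the microtubule-destabilising protein Stmn1 (13.70) followed, along with the brain fatty acid-binding protein Fabp7 (13.69), a radial glia marker. Gnb1, a G protein beta subunit used by rods and widely elsewhere, read 13.88, 13.88 and 13.90. The glucose transporter Slc2a1 had a mean of 13.74, and Scd2, a fatty acid desaturase of the developing brain, 13.55. Dapl1, a small protein known from the pigment epithelium and placed on the Müller glia list, stood at 13.57, 13.60 and 13.54.

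The rest of the 25 were of general use. They were the thioredoxin Txn1 at 13.86, the small GTPase Rhoa at 13.63, the translation helicase Eif4a1 at 13.61, the chaperone Hspa8 at 13.56 and the ATP synthase subunit Atp5d at 13.55. Nt5dc2, a member of a nucleotidase family, stood at 13.65. The Y RNA Rny3 read 13.86, 13.87 and 13.73, and Rpph1, the RNA of ribonuclease P, 13.56, 13.69 and 13.83. Ribosomal proteins were represented by Rplp0 at 13.69 and Rps6 at 13.67. The remaining gene, Baiap2l1, an actin regulator, held the second rank at 14.39 through 1 cluster only: the others that carry its name read 12.03 and 7.28, so its rank depends on which cluster is used. Of the 100 highest genes 97 were protein coding, 11 encoded cytosolic ribosomal proteins, 9 were on the list of translation and housekeeping genes and 5 on the pan-neuronal list. No gene of the lens, microglial, endothelial, bipolar, amacrine or pigment lists was among them.

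Cytosolic ribosomal protein genes as a group were bright, with a median signal of 11.97. Of 59 such genes 57 were above the reference, beside 69.8% of all genes. The 2 that were not are the tissue-restricted paralogs Rpl3l (6.41, 6.31 and 6.47) and Rpl39l (mean 5.45), which are known from striated muscle and from testis. Ribosomal protein genes have many near-identical processed copies, so signal on such a cluster can be shared among copies.

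Retinal progenitor genes were uniformly high. All 19 measured members were above the reference, against 69.8% of all genes, and 17 of them lay above the 90th percentile of signal. Their median signal was 12.01. Ccnd1 and the replication clamp Pcna, at 13.23, 13.36 and 13.26, led. Among other cell cycle genes, the proliferation antigen Mki67 read 12.51, 12.61 and 12.54 and the mitotic kinase Cdk1 11.88, 11.99 and 11.96. Transcription factors of the eye field and of progenitors were spread through the list. Lhx2 read 12.77, 12.80 and 12.77, Pax6 12.54, 12.59 and 12.52, Nr2e1 12.13, 12.15 and 12.18, Sox2 11.91, 12.06 and 12.06 and Rax 11.62, 11.62 and 11.66. The Notch pathway, which holds progenitors undifferentiated, was present at the levels of receptor and effector, with Notch1 at 12.58, 12.60 and 12.63, Hes5 at 11.64, 11.58 and 11.62 and Hes1 at 10.70, 10.75 and 10.75. The lowest members were Hes1 and the inhibitor of differentiation Id3 at 9.83, 9.72 and 9.81. The widest range of a member over the arrays was 0.16.

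Genes of neurogenic precursors, the cells leaving the cycle, were also all above the reference, 17 of 17, beside 69.8% of all genes. The list median was 11.38. Otx2, the homeobox factor that opens photoreceptor and bipolar fates, was the highest at 13.13, 13.11 and 13.19. The proneural bHLH factors Neurod4 (12.91, 12.79 and 12.92) and Neurod1 (12.70, 12.61 and 12.80) followed. Atoh7, which makes progenitors competent for the ganglion cell fate, still read 11.98, 11.97 and 12.13 at birth. Foxn4, a factor for amacrine and horizontal cells, stood at 11.38, and Neurog2 at 10.47. The measured Notch ligands were all above the reference, with Dll1 at 10.80, Dll3 at 10.47 and Dll4 at 10.39. The lowest of the list were Sstr2, a somatostatin receptor, at 9.85 and Gadd45a, a growth arrest gene, at 9.41.

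Genes shared by young neurons had a median of 12.50. Above the reference were 16 of 16, beside 69.8% of all genes, and 14 lay above the 90th percentile of signal. Snap25 (13.18, 13.27 and 13.19) and Syt1 (12.75, 12.80 and 12.80), parts of the vesicle release machinery, were high before synapses of the outer retina have formed. The cytoskeletal genes Tubb2b and Ina had means of 13.12 and 12.84, and the microtubule protein Map1b 12.83. Mapt, which encodes tau, read 10.40, 10.51 and 10.56. Rbfox3, which encodes the NeuN antigen of mature neurons, was the lowest at 9.84, 10.13 and 9.90.

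**Figure D2:**
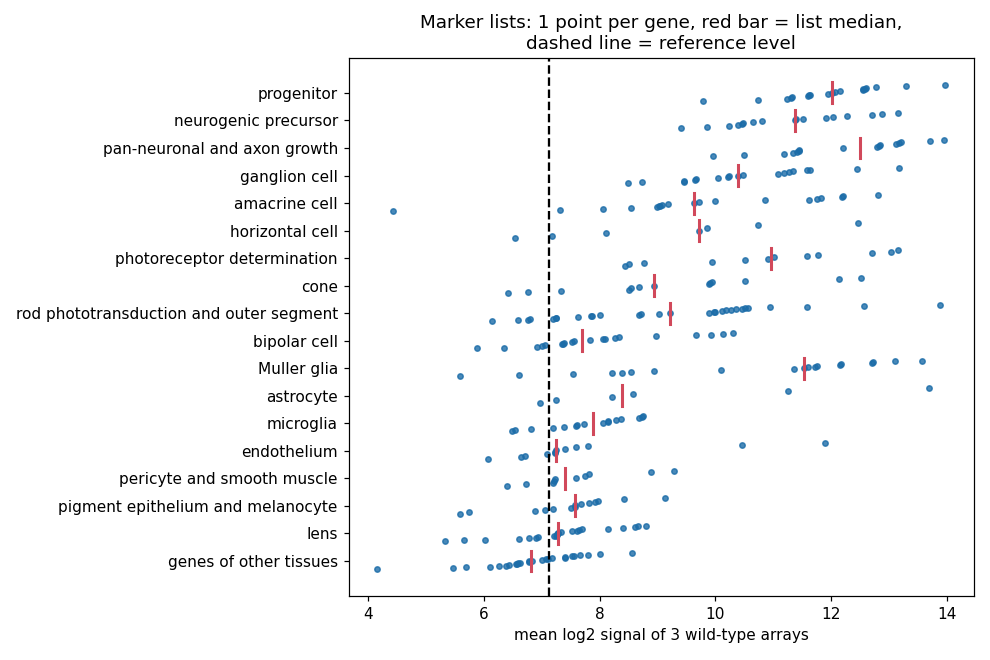
Mean log2 signal of the 3 wild-type arrays (horizontal axis) for each measured gene of 18 lists (vertical axis). Each blue point is a gene, the red bar is the list median and the dashed line the mean reference level of 7.12. Progenitor, neurogenic precursor and pan-neuronal genes lie wholly to the right of the line, whereas lens, pigment, pericyte and endothelial medians, from 7.24 to 7.57, lie close to it.

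Ganglion cells are the first neurons born and send the axons of the optic nerve. All 19 measured ganglion cell genes were above the reference, beside 69.8% of all genes, and the list median was 10.39. Stmn2 (13.14, 13.21 and 13.18) and the neurofilament Nefl (12.38, 12.50 and 12.47) were the highest, followed by the RNA-binding protein Rbpms at 11.57, 11.69 and 11.65 and the synuclein Sncg at 11.49, 11.71 and 11.55. Among transcription factors, Ebf1 had a mean of 11.27, Isl1 10.39, Eomes 10.23 and Pou4f1 10.21. The other neurofilament subunits, Nefm and Nefh, had means of 10.05 and 8.73. The lowest gene, Pou4f3, a late Brn3 factor, read 8.44, 8.43 and 8.59.

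Amacrine cells, the inhibitory interneurons of the inner retina, had 18 of 19 genes above the reference, beside 69.8% of all genes. The list median was 9.63. Transcription factors led, with Meis2 at 12.81, 12.73 and 12.90, Tfap2b at 12.19, 12.17 and 12.19, Barhl2 at 11.79, 11.87 and 11.83 and Tfap2a at 11.75, 11.72 and 11.79. The calcium-binding protein Calb2 read 12.20, 12.24 and 12.19. Transmitter genes spread widely. The glycine transporter Slc6a9 (11.64, 11.55 and 11.67) and the GABA-synthesising enzymes Gad2 (10.85, 10.95 and 10.76) and Gad1 (9.95, 10.03 and 9.98) ranked highest of these, and the vesicular transporter Slc32a1 read 9.07, 8.99 and 9.04. The dopaminergic enzyme Th read 8.07, 8.11 and 7.98. The cholinergic locus was split, as the vesicular acetylcholine transporter Slc18a3, which lies in an intron of Chat, read 9.65, 9.51 and 9.73 while Chat itself read 7.31, 7.29 and 7.33, just above the reference. Neurod6, a marker of a late amacrine subtype, was far below it at 4.47, 4.40 and 4.44.

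Horizontal cell genes were 5 of 7 above the reference, near the share of all genes. Of the factors that specify the cell, Prox1 read 10.70, 10.80 and 10.71, Onecut1 9.72, 9.98 and 9.85 and Onecut2 9.65, 9.86 and 9.64. Lhx1 read 8.15, 8.01 and 8.15 and was not above the stricter reference. Prox1 and the Onecut genes are also used by other young retinal cells. Tpm3, a tropomyosin found in many tissues, had the highest signal of the list at 12.46. The products of mature horizontal cells were dim: the calcium-binding protein Calb1 read 7.05, 7.30 and 7.17 and did not pass on replicate 1, and the connexin Gja10, which couples the cells, read 6.61, 6.51 and 6.51.

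Photoreceptor genes that set the fate had a higher median signal than those that run the adult cell, but their levels overlapped. All 12 measured determination genes were above the reference, beside 69.8% of all genes, and the list median was 10.96. After Otx2, the nuclear receptor Rorb read 13.03, 13.07 and 13.01, and Prdm1, which turns cells from the bipolar to the photoreceptor fate, 11.59, 11.81 and 11.91. Crx, the homeobox factor that activates photoreceptor genes, read 10.97, 10.98 and 11.08. Nrl, the leucine zipper factor that commits a cell to the rod fate, was much lower in rank at 8.62, 8.68 and 9.01, with replicate 3 above the others. The cone factors Rxrg and Thrb had means of 10.51 and 9.94, and Sall3 of 8.51. Recoverin (Rcvrn), an effector kept on this list, was the lowest at 8.53, 8.34 and 8.46.

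The rod list of phototransduction and outer segment genes had 23 of 29 above the reference, 2 that passed on some arrays and 4 on none. Over all genes 69.8% were above it and 26.9% passed on no array. The rod list had a median of 9.22, and its members ran from the top of the scale to well below the reference. The highest besides Gnb1 were Rbp3, the retinoid carrier of the matrix around photoreceptors, at 12.51, 12.60 and 12.58 and Reep6, a membrane-shaping protein of rods, at 11.60, 11.54 and 11.61. Structural genes of the disc and cilium formed a middle group, with the tetraspanins Prph2 (10.23, 10.12 and 10.44) and Rom1 (9.94, 9.95 and 10.04) and the microtubule protein Rp1 (mean 9.89). Arrestin (Sag) read 10.21, 10.03 and 10.33, and phosducin (Pdc) 10.08, 9.94 and 10.32.

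The transduction cascade itself was uneven. Of the rod phosphodiesterase, the inhibitory subunit Pde6g read 10.66, 10.44 and 10.46 and the catalytic subunit Pde6b 8.72, 8.48 and 8.84, while the other catalytic subunit, Pde6a, read 7.25, 7.04 and 7.30 and did not pass on replicate 2. Of rod transducin, the alpha subunit Gnat1 read 7.57, 7.58 and 7.77 and the gamma subunit Gngt1 7.18, 7.03 and 7.52, above the reference on replicate 3 only. The cyclic nucleotide-gated channel had its beta subunit Cngb1 at 8.75, 8.64 and 8.75, and its alpha subunit Cnga1 at 6.55, 6.49 and 6.72, below the reference on every array. Guca1a, the calcium sensor of guanylate cyclase, stood at 6.81, the matrix proteoglycan Impg1 at 6.77 and the cyclase Gucy2f at 6.14, also below on every array. These levels come from different probes and from the brightest cluster of each gene, so they are not a measure of subunit proportions; the dimmest of the Cngb1 clusters had a mean of 6.79.

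Cone genes also spread widely, with 11 of 13 above the reference, beside 69.8% of all genes, and a median of 8.95. The short-wavelength opsin Opn1sw read 12.18, 12.01 and 12.20, higher in signal than 97.4% of genes, and the cone beta transducin Gnb3, used also by ON bipolar cells, 12.49, 12.57 and 12.49. The medium-wavelength opsin Opn1mw read 6.65, 6.79 and 6.84, below the reference on every array. Cone arrestin Arr3 was lower still at 6.23, 6.33 and 6.70. Between these lay the transducin alpha subunit Gnat2 (9.95, 9.81 and 9.95), the channel subunits Cngb3 (9.91, 9.75 and 9.99) and Cnga3 (8.72, 8.63 and 8.68) and the phosphodiesterase Pde6c (8.51, 8.59 and 8.53). The short-wavelength opsin is known to appear in mouse cones around birth and the medium-wavelength opsin some days later.

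**Figure D3:**
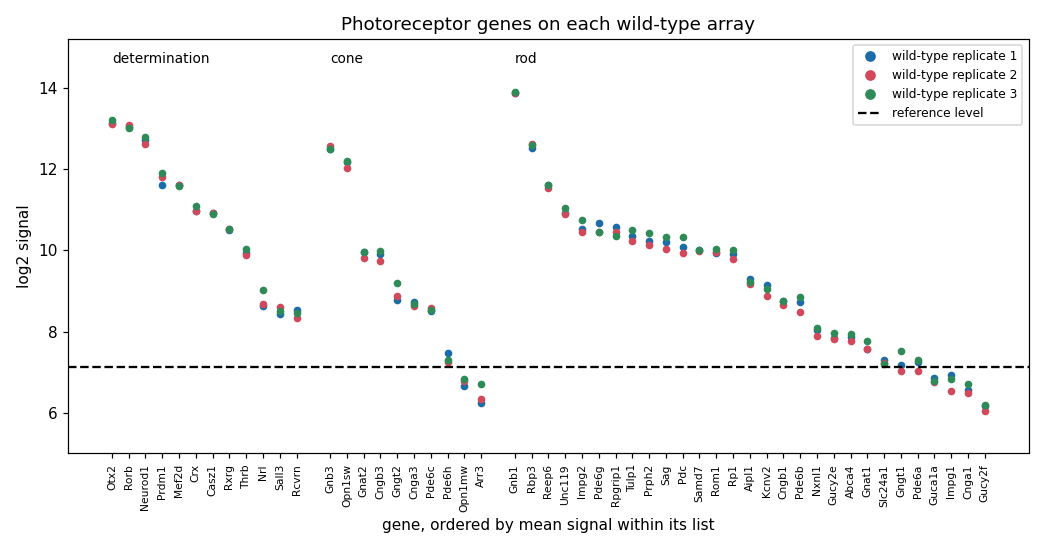
Log2 signal (vertical axis) of each photoreceptor gene (horizontal axis, ordered by mean within its list) on wild-type replicates 1 (blue), 2 (red) and 3 (green), with the mean reference level of 7.12 dashed. Rxrg, Thrb and Sall3, on both the determination and cone lists, are drawn under determination; Opn1sw lies near 12 on each array, and Opn1mw and Arr3 lie below the line.

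Replicate 2 stood apart in the rod list, where it was the lowest array for 23 of 29 genes and replicate 3 was the highest for 19. Over all genes replicate 2 was the lowest for 36.1%. The offsets were small: members deviated from their gene means by 0.019, -0.093 and 0.074 on average on replicates 1, 2 and 3. Without replicate 2 the number of rod genes above the reference was 24, but a rule over fewer arrays is easier to pass.

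The promoters of 5 of these genes, chosen after values were seen, are shown as examples: 4 bright genes and, beside the bright cone opsin, the dim one. Crx and Otx2 are known to bind TAATCC, a homeodomain motif. Promoter windows of 300 bases, 250 before to 50 after the annotated start, were taken from RefSeq for GRCm38.p6 and searched on both strands. Capitals mark TAATCC or its reverse complement. Rbp3 lies at chr14:33953753-33954052 on the plus strand with 1 match, Crx at chr7:15879906-15880205 on the minus strand with 2, and Sag at chr1:87803430-87803729 on the plus strand with 1. Opn1sw, at chr6:29380464-29380763 on the minus strand, and Opn1mw, at chrX:74127216-74127515 on the plus strand, have 0.
Rbp3: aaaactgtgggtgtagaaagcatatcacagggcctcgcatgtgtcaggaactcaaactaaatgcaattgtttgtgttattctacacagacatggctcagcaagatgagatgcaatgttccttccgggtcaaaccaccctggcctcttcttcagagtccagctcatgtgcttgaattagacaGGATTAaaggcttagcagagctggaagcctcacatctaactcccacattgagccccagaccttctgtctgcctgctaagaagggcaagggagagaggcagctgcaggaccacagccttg
Crx: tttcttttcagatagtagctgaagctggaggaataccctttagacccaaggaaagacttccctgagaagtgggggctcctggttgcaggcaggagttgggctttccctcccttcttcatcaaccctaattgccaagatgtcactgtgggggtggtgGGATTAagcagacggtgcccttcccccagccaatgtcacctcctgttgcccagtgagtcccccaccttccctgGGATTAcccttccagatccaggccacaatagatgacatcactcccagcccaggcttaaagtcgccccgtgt
Sag: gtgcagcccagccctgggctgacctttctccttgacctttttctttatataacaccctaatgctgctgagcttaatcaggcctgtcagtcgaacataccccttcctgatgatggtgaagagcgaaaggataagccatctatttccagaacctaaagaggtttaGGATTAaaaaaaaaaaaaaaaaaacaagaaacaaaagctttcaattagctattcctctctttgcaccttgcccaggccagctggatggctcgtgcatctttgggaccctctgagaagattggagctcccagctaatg
Opn1sw: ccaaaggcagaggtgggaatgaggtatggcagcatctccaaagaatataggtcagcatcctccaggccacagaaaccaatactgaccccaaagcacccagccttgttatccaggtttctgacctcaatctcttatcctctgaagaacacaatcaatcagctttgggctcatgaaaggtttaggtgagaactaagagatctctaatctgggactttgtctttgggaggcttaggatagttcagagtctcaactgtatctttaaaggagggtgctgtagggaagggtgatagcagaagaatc
Opn1mw: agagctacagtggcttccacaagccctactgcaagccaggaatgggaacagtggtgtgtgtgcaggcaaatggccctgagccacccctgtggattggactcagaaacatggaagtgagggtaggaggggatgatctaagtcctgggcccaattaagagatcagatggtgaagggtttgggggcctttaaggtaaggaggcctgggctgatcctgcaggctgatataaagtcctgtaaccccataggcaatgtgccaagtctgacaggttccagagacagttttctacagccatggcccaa

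Of all 32851 promoters in the table, 7.06% held the motif. Among the determination genes, 10 of 12 had a promoter there, and an average of 22.5% of their promoters held it, counting each gene equally. Counted in the same way, the share was 6.41% over all protein-coding genes. A check on the rod list is void, since 23 of 29 genes (79.3%) had a promoter and 80% were needed, and so is one on the cone list, with 8 of 13. Single genes, picked as examples, went both ways. The bright Rbp3 had 1 match and the bright Gnb1 and Rorb 0. The dim Gucy2f had 2, the dim Cnga1 1 and the dim Opn1mw 0. These examples do not stand for their lists, for which the rod and cone checks give no answer. The bright and the dim cone opsin do not differ in this feature. A match is a description of the letters, and a window without one says nothing about the factor.

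Bipolar cells, which link photoreceptors to ganglion cells, are among the last neurons to form. Of their 20 genes 15 were above the reference, beside 69.8% of all genes, but most only by little. The median was 7.69, and 6 remained by the stricter reference from genes of other tissues, which 54.5% of all genes passed. The genes at the top were Vstm2b (10.28, 10.28 and 10.33), Nyx (10.19, 10.10 and 10.09), the protein kinase Prkca (9.89, 9.95 and 9.95) and the homeobox gene Lhx4 (9.63, 9.82 and 9.53). Prkca and Lhx4 are used by other cells too, and a second cluster of Nyx, which encodes the synaptic protein nyctalopin, read 6.57 on average. The defining genes of the ON bipolar synapse were at the dim end. The glutamate receptor Grm6 read 7.29, 7.36 and 7.41, its channel Trpm1 7.18, 6.96 and 7.01, and the bipolar homeobox gene Vsx1 7.39, 7.41 and 7.29. Markers of OFF and cone bipolar types, the kainate receptor Grik1 (6.22, 6.42 and 6.41) and secretagogin (Scgn; 6.02, 5.73 and 5.89), were below the reference on every array.

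Müller glia share many genes with progenitors. Of 19 measured genes 17 were above the reference, beside 69.8% of all genes, and the list median was 11.52. Besides Dapl1, the intermediate filament Vim read 13.10, 13.13 and 13.07, Dkk3 12.72, 12.78 and 12.65, glutamine synthetase Glul 12.67, 12.73 and 12.73 and the glutamate transporter Slc1a3 12.15, 12.14 and 12.23. The glial factor Sox9 read 11.63, 11.50 and 11.66. The retinaldehyde-binding protein Rlbp1 stood lower at 10.09, 9.91 and 10.32, and the potassium channel of mature end feet, Kcnj10, at 8.85, 8.98 and 8.99. Its partner in water and ion handling, the water channel Aqp4, was below the reference at 6.60, 6.59 and 6.64, as was the transporter Abca8a at 5.66, 5.62 and 5.51.

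Astrocytes enter the retina along the optic nerve from around birth. Of 6 genes 4 were above the reference, near the 69.8% of all genes. Of these 4, Fabp7 and the transporter Slc1a2 (11.22, 11.24 and 11.31) are also used by progenitors and Müller glia. The receptor Pdgfra read 8.69, 8.50 and 8.54 and the optic nerve factor Pax2 8.36, 8.17 and 8.10. Gfap, the astrocyte intermediate filament, had the widest range of the list at 7.60, 7.30 and 6.86, and was above the reference on replicates 1 and 2.

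Genes of cells from outside the neural retina were mostly in the lower part of the scale. Microglial genes were 12 of 16 above the reference, near the 69.8% of all genes, and 5 by the stricter one, which 54.5% of all genes passed. Their median was 7.89, beside 8.52 over all genes, and none was above the 90th percentile of signal. The highest were Laptm5 (8.75, 8.63 and 8.84), C1qb (8.75, 8.71 and 8.75), Cd68 (8.73, 8.66 and 8.68) and the fractalkine receptor Cx3cr1 (8.25, 8.36 and 8.50). Itgam, Aif1 and Ptprc, which encodes CD45, were below the reference on every array, at means of 6.82, 6.54 and 6.49.

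Endothelial genes were 7 of 12 above the reference, beside 69.8% of all genes, and 2 by the stricter one, beside 54.5%. Those 2 were the VEGF receptor Kdr (11.89, 11.79 and 12.01) and the tight junction gene Cldn5 (10.53, 10.29 and 10.55), both far above the rest. Kdr is known to be made by neural progenitors of the retina as well. The defining cadherin Cdh5 read 7.37, 7.26 and 7.07, Pecam1 7.08, 7.11 and 7.08, Tek 6.82, 6.68 and 6.64 and Emcn 6.29, 6.08 and 5.85. Pericyte and smooth muscle genes were 6 of 10 above and 2 by the stricter reference, beside the same shares of all genes. They were led by Pdgfrb at 9.29 and Notch3 at 8.88, and Tagln was the lowest at 6.40.

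Markers of the neighbouring eye tissues were read as a check on the dissection. Pigment cell genes were 9 of 14 above the reference and 2 by the stricter one, beside 69.8% and 54.5% of all genes. Stra6, a receptor for retinol-binding protein, was the highest at 9.21, 9.11 and 9.05, and the melanosome protein Pmel read 8.56, 8.47 and 8.23. The visual cycle enzyme Rpe65, which defines the pigment epithelium, was at 5.59, 5.62 and 5.59, and tyrosinase (Tyr) at 5.85, 5.66 and 5.76.

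Lens genes were 16 of 23 above the reference, close to the share of all genes, and 4 by the stricter one, which 54.5% of all genes passed. The beta crystallins Crybb1 (8.94, 8.69 and 8.79) and Crybb2 (8.56, 8.28 and 8.37) were among the highest, with the connexin Gja3 (8.74, 8.60 and 8.68) and the lens factor Foxe3 (8.71, 8.51 and 8.62). The alpha crystallin Cryaa read 7.60, 7.58 and 7.42. The gamma crystallins Crygb and Crygd were below the reference on every array at means of 5.66 and 5.34. Replicate 1 was the highest array for 15 of 23 lens genes and replicate 2 the lowest for 16, beside 34.1% and 36.1% of all genes. The chemosensory receptors, dim genes of another tissue, were also higher on replicate 1, with mean deviations of 0.038 there and -0.038 on replicate 3, and the part of this offset in the lens values was not tested. Of 6 red blood cell genes read by clusters of their own, 2 were above the reference and 0 by the stricter one. Over all genes the shares were 69.8% and 54.5%. The red blood cell genes were led by the anion exchanger Slc4a1 at 7.97. Clusters shared by several adult globin genes are not counted among them and were brighter, with means from 9.76 to 10.28.

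Genes that give retinal cells their position were all above the reference, 18 of 18, beside 69.8% of all genes. The list median was 9.99. Dorsal genes included Tbx3 (11.62, 11.68 and 11.60), Tbx2 (11.59, 11.60 and 11.58), the retinoic acid enzyme Aldh1a1 (11.22, 11.29 and 11.39) and Tbx5 (9.01, 9.03 and 9.12). Their ventral counterparts were the homeobox gene Vax2 at 10.49, 10.48 and 10.49 and the enzyme Aldh1a3 at 9.83, 10.14 and 9.91. Between the dorsal and ventral poles, Cyp26a1, which degrades retinoic acid, read 9.98, 9.82 and 9.94 and its relative Cyp26c1 8.30, 8.15 and 8.19. Along the nasotemporal axis the ephrins Efna2 and Efna5 had means of 11.06 and 10.61, the receptor Epha5 of 10.55, the temporal factor Foxd1 of 8.88, and the receptor Epha6 of 8.09, the lowest of the list.

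Families of developmental regulators, chosen after values were seen, differed in how much of each was above the reference. All 6 Irx genes, all 4 Zic genes and 18 of 19 Sox genes were, with Zic2 at 11.96 and Sox11 at 12.18. Forkhead genes were near the share of all genes, 69.8%, with 31 of 43 above. Of 37 Hox genes, which pattern the trunk and hindbrain and not the eye, 9 were, or 24.3%, and the median was 6.91. Among 9 Pax genes, Pax6 at 12.55 stood alone, the next being Pax2 at 8.21. Six6 and Six3, the eye members of their family, had means of 11.31 and 11.24. Of families used mainly in other tissues, 7 of 41 defensins, 7 of 47 serpins and 0 of 3 major urinary proteins were above the reference, as were 14 of 44 keratin-associated proteins and 23 of 48 keratins.

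Noncoding RNA classes differed in the share above the reference. By annotated class, 48.0% of 675 long noncoding RNA genes and 33.7% of 297 microRNA genes passed, beside 71.6% of 18553 protein-coding genes and 42 of 53 snoRNA genes (79.2%). These differences were not tested. Tug1, a long noncoding RNA first described in the retina, read 12.52, 12.54 and 12.54, Malat1 11.90 and 12.09 on replicates 1 and 2 and between these on replicate 3, and the imprinted Meg3 11.15, 11.06 and 10.89. Six3os1, transcribed beside Six3, read 10.38, 10.42 and 10.43. Airn and Rian were near or below the reference at means of 7.14 and 6.75, and Pantr1 was at 6.12.

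MicroRNAs shape retinal differentiation by pairing their seed, bases 2 to 8, with target messages. The array reads the hairpin region in total RNA, not the mature strand, so these signals do not measure mature microRNAs. Of 23 measured hairpins from a list of microRNAs known in retina, 11 were above the reference and 3 by the stricter one. The shares of all genes were 69.8% and 54.5%, and 33.7% of 297 microRNA genes passed the first reference. Of the 23 hairpins, 21 had mature sequences in RefSeq for GRCm38.p6. Shown with the seed in capitals are 3 sets of related microRNAs, chosen after values were seen. The first lines are the family of the Mir17 and Mir106b clusters, which have the seed AAAGUGC. Then come miR-204 and miR-211, with the seed UCCCUUU, and the sensory microRNAs miR-182, miR-96 and miR-183, whose seeds differ from each other.
miR-17-5p: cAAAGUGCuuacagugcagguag
miR-20a-5p: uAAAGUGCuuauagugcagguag
miR-106b-5p: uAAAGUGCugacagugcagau
miR-93-5p: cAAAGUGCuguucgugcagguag
miR-204-5p: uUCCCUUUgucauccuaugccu
miR-211-5p: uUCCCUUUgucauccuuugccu
miR-182-5p: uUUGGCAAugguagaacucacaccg
miR-96-5p: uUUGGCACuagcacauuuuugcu
miR-183-5p: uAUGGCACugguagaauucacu

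Within the first family, the chromosome 5 hairpins, which lie in the Mcm7 gene with Mir25, were above the reference, with Mir106b at 8.14, 8.05 and 7.65 and Mir93 at 8.45, 8.36 and 8.09. The chromosome 14 hairpins of the same seed were below it on every array, with Mir17 at 6.87, 7.07 and 6.77 and Mir20a at 6.40, 6.18 and 6.03. Mir211 read 8.31, 8.10 and 8.17 and Mir204 6.82, 6.91 and 6.82. The sensory trio lies close together on chromosome 6, yet Mir182 read 7.64, 7.77 and 7.62, Mir96 7.20, 7.14 and 7.23, which missed the reference on replicate 1, and Mir183 5.31, 5.43 and 5.35. Hairpins that give the same mature strand also read differently, with Mir9-1 at 7.54 and Mir9-3 at 6.44, Mir181a-2 at 7.03 and Mir181a-1 at 5.40, and Mir7-1 above Mir7-2, which had a mean of 7.26. The highest hairpin was Mir7-1 at 9.41, 9.72 and 9.17, and the lowest Mir125b-2 at 4.32, 4.30 and 4.22. How much of their signal comes from the host transcript was not tested.

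The 3 arrays differed little. The SD of a gene over the arrays had a median of 0.0711, and the range a median of 0.136, with 95% of genes under 0.342. Genes above the reference had a lower median SD, 0.0646, than the others, 0.0905. A range over 0.5 was seen for 149 genes, or 0.747%, and a range over 1 for 8 genes, or 0.0401%. Besides Xist, Uty, Eif2s3y and Kdm5d, those 8 were the metallothionein Mt2, the peptide transporter Slc15a2 (6.51, 8.53 and 8.34), the clock gene Per1 and 1700001J11Rik. Without replicate 2 the number was 5.

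**Figure D4:**
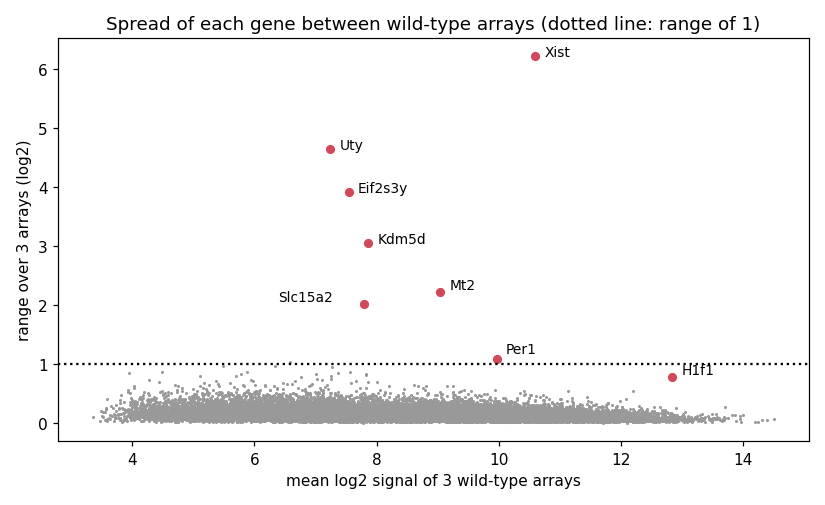
Range over the 3 wild-type arrays (vertical axis, log2) against mean log2 signal (horizontal axis) for each of 19938 genes in grey, with named genes in red. The dotted line marks a range of 1; the sex-linked genes lie highest, followed by Mt2, Slc15a2 and Per1.

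Among genes above the reference on every array, 38 (0.273%) had a range over 0.5 and 2 (0.0144%) a range over 1, and both of these were highest on replicate 2. Mt2, which binds zinc and is induced by metals and glucocorticoids, read 8.53, 10.40 and 8.19, so replicate 2 stood apart from the others, which were close together. Per1, a core clock gene that also responds to glucocorticoids, read 9.71, 10.63 and 9.55. On replicates 1 and 3 alone, both genes differed by under 0.5. The next were Teddm1b (8.26, 7.43 and 7.79), the small nucleolar RNA Snora75 (8.06, 8.12 and 7.31), the linker histone H1f1 (12.82, 13.23 and 12.45) and the skin gene Hrnr (7.55, 8.06 and 7.35). Zfp991 had a range of 0.69, Krt10 0.68, Rmi2 0.66, Cdk5rap1 0.64, Thap2 0.63, Mt1 0.63, Anp32-ps 0.62, Lrit2 0.62 and Mir505 0.62.

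A list of 19 measured genes known to respond to glucocorticoids or zinc or to run the circadian clock was drawn up after Mt2 and Per1 were seen. It holds both genes, so its counts are a description of a chosen list: replicate 2 was the highest array for 12 of the 19 and the lowest for 1. Over all genes replicate 2 was the highest for 30.6% and the lowest for 36.1%. Mt1 followed Mt2 with a smaller excursion, at 8.09, 8.58 and 7.96, as did the zinc exporter Slc30a1 at 8.36, 8.79 and 8.22, the glucocorticoid-induced factor Klf9 at 10.36, 10.72 and 10.34 and the clock repressor Nr1d1 at 11.44, 11.65 and 11.22. Other glucocorticoid targets did not share the pattern: Fkbp5 read 9.54, 9.59 and 9.67, Tsc22d3 8.50, 8.69 and 8.80 and Sgk1 7.93, 7.86 and 7.90. The neural metallothionein Mt3 read 9.56, 9.47 and 9.43. Whether the mixed Xist and Y-linked signal of replicate 2 bears on these values was not tested.

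The promoter of Mt2 is shown because that gene varied most among those above the reference. It lies at chr8:94172368-94172667 on the plus strand of GRCm38.p6, from RefSeq. Capitals mark TGCACNC or TGCGCNC on either strand, the core of the metal response element bound by the zinc sensor MTF1, of which it holds 4. Over all 32851 promoters 25.7% held at least 1.
Mt2: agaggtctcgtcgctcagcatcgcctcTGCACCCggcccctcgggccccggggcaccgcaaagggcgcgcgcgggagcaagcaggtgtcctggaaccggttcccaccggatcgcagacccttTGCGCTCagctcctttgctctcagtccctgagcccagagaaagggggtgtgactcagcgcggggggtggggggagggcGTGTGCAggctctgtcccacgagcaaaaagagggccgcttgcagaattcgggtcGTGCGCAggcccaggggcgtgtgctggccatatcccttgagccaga

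Promoter features changed with signal. Of 18553 protein-coding genes, 15005 (80.9%) had a promoter in the table, and they were put in deciles by mean signal. The median number of CpG dinucleotides in 300 bases was 1.50 in the dimmest decile and 24.0 in the brightest, and GC content rose from 39.7% to 63.0%. That dimmest decile ran from 3.52 to 5.75 in signal. Many of the 1209 chemosensory receptor genes, whose median was 5.37, lie in that span. The hexamer TATAAA, searched on both strands, was in 34.2% of promoters of the dimmest decile, 5.06% of the ninth and 7.35% of the brightest. These shares count each gene equally, and over all protein-coding genes the share was 12.3%. Counting each promoter in the table equally, it was 13.6%. Genes above the reference had a median of 20 CpG and the others 3. Of the chemosensory receptor genes, 1136 passed on no array, and their part in these contrasts was not tested. Lens genes, with a promoter for 21 of 23, had a median of 4 CpG and TATAAA in 31.0%. Ribosomal protein genes, with 47 of 58, had 21 CpG and TATAAA in 11.7%. In the 3 deciles just below the median of signal, 77.1% to 77.8% of genes had a promoter, too few for those points to be read.

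**Figure D5:**
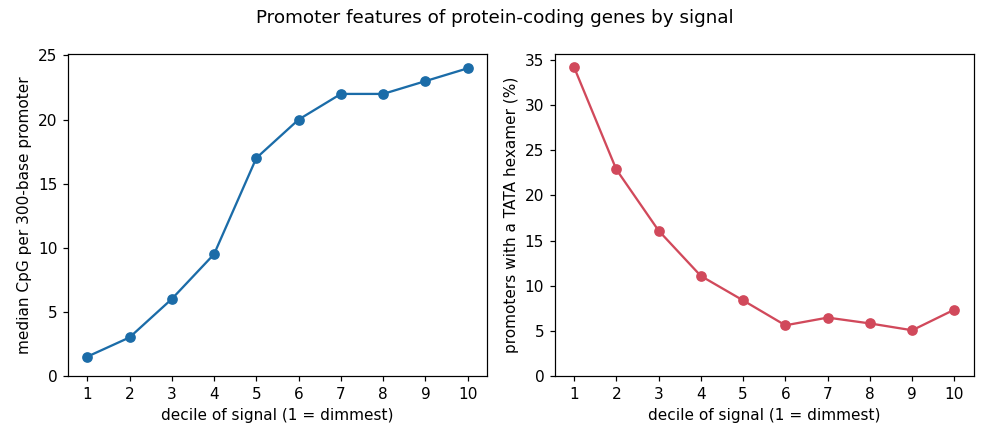
Median count of CpG dinucleotides per 300-base promoter (left) and percentage of promoters that hold TATAAA on either strand (right) for protein-coding genes in deciles of mean wild-type signal, from 1 (dimmest) to 10 (brightest). CpG count goes from 1.50 to 24.0, and the share with TATAAA from 34.2% to 7.35%.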

How the data were processed

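Retinal RNA of 3 wild-type newborn mice was read on Affymetrix Mouse Gene 1.0 ST arrays. The authors deposited log2 signal for every transcript cluster, made with Affymetrix Expression Console and RMA per the submitters' processing notes, which also name Transcriptome Analysis Console. Neither versions nor probe filters are given in the sources used here. RMA gives all arrays 1 distribution of probe values, so a difference shared by most transcripts is removed. Probe counts per cluster and depth do not apply, and 3 arrays limit the precision. The labels call the samples biological replicates, and nothing further was used to establish that.

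Of 35557 clusters, a platform annotation named 1 gene for 21789, several for 1621 and none for 12147. Identifiers of 21698 matched the RefSeq gene table of GRCm38.p6, with 0 symbols changed. Means, SDs, ranges and ranks were computed with pandas 2.3.3 and numpy 2.4.6 in Python 3.11.15 and drawn with matplotlib 3.10.9. The calling steps were tested on simulated data. List members without a single-gene cluster were not analysed here.

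Named genes were the 25 highest, the members that each list's roles call for with its highest and lowest, the 15 largest ranges above the reference and the 3 genes whose clusters differed most. Genes with a range over 1 that missed the reference, family members and the second list of responsive genes were chosen after their values were seen. The members and lists were chosen with earlier results of these data known. Alternatives were the 90th and 99th percentiles, genes of other tissues as reference, a rule on means, the median over clusters, centred arrays and each array left out.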

Additional observations from a re-analysis of the deposited data

Results flagged for a closer look

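Of the 12147 clusters for which the annotation named no gene, 5293 (43.6%) were above the reference on all 3 arrays. They take part in no rank or list above, and their median signal was 6.97. The 1621 clusters that several genes share had 902 (55.6%) above it.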

How the results depend on the processing

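No paired analysis was possible because only 1 group is described and no test was made. The number of genes above the reference stayed within 1.5 times of 13911 under every alternative tried. It was 11418 at the 99th percentile of the chemosensory clusters, 15185 at the 90th and 10863 with genes of other tissues as the reference. With an array left out, which makes the rule easier to pass, it was 13935 to 14084. Of 26 lists, 8 changed their count by over 1.5 times at the 99th percentile and 9 with genes of other tissues. Of the 25 highest genes 21 stayed among the 25 with the median over a gene's clusters, and 23 to 25 with an array left out. A range over 1 was seen for 8 genes, for 2 among those above the reference, and for 5 to 6 with an array left out, the 5 being without replicate 2; a range over fewer arrays is smaller by construction. The median range was 0.136, or 0.151 with centred arrays. The difference in median promoter CpG between the brightest and dimmest deciles was 22.5, and 17 between genes above and not above the reference, which compares less extreme groups.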

Other observations

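Clusters of 1 gene disagreed across much of the scale in some cases. The 3 largest gaps were in Top2a, a topoisomerase of dividing cells, whose clusters had means of 4.15 and 12.06, in Baiap2l1, and in Ufm1, a ubiquitin-like modifier, at 4.72 and 11.54. The progenitor level given for Top2a rests on the brighter cluster.

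Clusters shared by several globin genes, named here after their values were seen, were brighter than the red blood cell genes read singly. A cluster shared by the alpha globin genes Hba-a1 and Hba-a2 read 9.53, 10.93 and 10.36, and a cluster shared by adult beta globin genes 8.88, 10.45 and 9.99. Replicate 1 was the lowest for both and replicate 2 the highest. Slc4a1, a membrane protein of the same cells, did not vary in that way, at 7.96, 8.01 and 7.93.

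A few chemosensory receptor clusters were far above the reference built from them, chosen here after their values were seen. Olfr1174, annotated as a pseudogene, read 10.02, 9.97 and 9.90, and Olfr767 read 9.74, 9.33 and 9.55. In all 53 of 1209 such genes passed on every array, beside the 5% that the percentile leaves above it on 1 array.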
